A study of Mus musculus with 2 samples.

Results

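Malat1 and Neat1 are neighbouring genes of mouse chromosome 19 whose long noncoding RNAs stay in the nucleus. The peaks described here are those of the O-GlcNAc-Oct4 list whose summit lies between positions 5770000 and 5870000 of chromosome 19 (mm9), a window of 100 kb that holds both genes. There were 11 such peaks among 33783 in the list and among 883 on chromosome 19. Since the peaks were chosen by being listed there, their number and strength are given as a description and not as a test. Of the 11 peaks, 6 had their summit in the Malat1 interval, 3 had it 49 to 2742 bp beyond its low edge and 2 between the genes. The Neat1 interval held 0.

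The study was directed at chromatin bound by Oct4 that carries O-linked N-acetylglucosamine (O-GlcNAc), a sugar put on serine and threonine of nuclear proteins. The cells were ZHBTc4 F-Oct4, mouse embryonic stem cells that make Flag-tagged Oct4; in the parent line, ZHBTc4, both endogenous alleles of the Oct4 gene are inactivated and Oct4 comes from a transgene that tetracycline switches off. What drives the Flag-Oct4 gene in this line is not given in the sources used here, and neither is a treatment or a time. In both groups chromatin was taken down with anti-Flag antibody (Oct4). In the sWGA group the eluate was then bound to succinylated wheat germ agglutinin (sWGA), a lectin for N-acetylglucosamine. As the chromatin was cross-linked, the lectin may also hold it through another protein with the sugar. The list therefore does not show that Oct4 itself carried the sugar at a peak. In the control group the second step is called IgG in one label, plain agarose beads in another and input in a further one. Each group was 1 library, so no value here has a replicate error and no p-value between the groups is given.

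The sWGA library held 6129874 tags (aligned reads) after filtering, of 16695056 before it, and the control library 78351 of 366466. Up to 2 tags at the same position were kept in the sWGA library, so the tags of a peak may lie at fewer positions than their number. A peak is a region called on the sWGA library against the control. The authors' caller gave each peak its tags, a score (10 times the negative log10 of its p-value) and a fold, the tag height at the summit over the expected height. Genome-wide the list had a median of 11 tags, a length of 419 bp, a score of 79.96 and a fold of 15.75.

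Malat1 RNA is among the most abundant long noncoding RNAs of many cell types and gathers in nuclear speckles, which are rich in splicing factors. Its end is cut by RNase P, which releases a small tRNA-like RNA (Mascrna in RefSeq). Neat1 RNA is the scaffold of paraspeckles, nuclear bodies that assemble beside the Neat1 gene and hold RNA-binding proteins such as Sfpq and Nono. The RefSeq entries of GRCm38.p6 run in the order Malat1, Mascrna, Neat1 and Frmd8. As Mascrna comes from the end of Malat1, this order does not place it between Malat1 and Neat1. RefSeq places Malat1 on the minus strand, so that its start is at the high edge of its interval and its end at the low edge. The edges used here are rounded mm9 positions, 5.796 to 5.803 Mb for Malat1 and 5.825 to 5.846 Mb for Neat1.

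A promoter sequence was at hand for Malat1, from RefSeq (GRCm38.p6, minus strand, 250 bases before the start of the gene to 50 after it). It is shown because a listed peak lay near that end of the gene. The peaks are on mm9, so the sequence was not laid onto them base by base, and whether it overlaps that peak is not known. Capitals mark TGACGT, the core of the cAMP response element, on either strand.
Malat1 promoter: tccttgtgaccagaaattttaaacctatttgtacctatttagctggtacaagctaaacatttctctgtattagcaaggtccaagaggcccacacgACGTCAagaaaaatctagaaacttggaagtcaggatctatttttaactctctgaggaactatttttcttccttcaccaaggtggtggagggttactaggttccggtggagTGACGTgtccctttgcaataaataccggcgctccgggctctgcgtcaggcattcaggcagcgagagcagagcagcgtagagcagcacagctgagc

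TGACGT occurred at 2 places in this promoter, and 7.51% of the 32851 RefSeq promoters of that length held it on either strand. This motif was picked after the sequence had been seen. The octamer ATGCAAAT, the sequence that Oct4 and its relatives are known to bind, had 0 matches in the Malat1 promoter and occurred in 1.74% of all promoters. Its first 7 bases, ATGCAAA, which overlap every octamer, also had 0 matches, against 4.63% of all promoters. CATTGT, the core bound by Sox factors, was found in 12.6% of promoters and TATAAA in 13.6%, and the Malat1 promoter held 0 of each. These counts describe the letters of a single window of 300 bases.

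Within the Malat1 interval the 6 peaks held 10 tags each, apart from 1 that held 18, and their summits were 362 to 1663 bp apart. Following the gene from its start, the first peak, chr19:5802433-5802890, had its summit 228 bp inside the high edge and held 10 tags. As that edge is rounded, whether this summit lies inside the gene or before its start is not settled. The next, chr19:5801444-5801883, also held 10 tags, with its summit 1221 bp from that edge. Both had a fold of 11.81, which is a height of 6 tags at the summit.

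Then came 3 peaks close together. The peak chr19:5800005-5800443 held 10 tags at a fold of 15.75, and chr19:5799439-5799848 held 10 tags at a fold of 11.81. The peak chr19:5798923-5799283 held 10 tags again, at a fold of 15.75. The gaps between these regions were 155 and 156 bp, about the 155 bp fragment length that the caller used.

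The last peak inside the interval, chr19:5798081-5798718, held more, with 18 tags over 638 bp and a score of 118.57. It was separated from its neighbour by 204 bp. Thus 5 of the 6 peaks in the Malat1 interval held exactly 10 tags, and their scores ran from 62.55 to 72.66, not far above the caller's limit of 50. Such peaks are common: 9902 peaks of the list held 10 tags. Their median length was 380 bp, with quartiles of 317 and 428 bp, whereas the 5 Malat1 peaks measured 361 to 458 bp with a median of 439 bp.

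The peak with the most tags of the 11 lay at the end of Malat1. This peak, chr19:5795850-5796585, held 26 tags at a fold of 23.62 and a score of 176.68. Its summit was 49 bp outside the low edge, so that the rounding of that edge decides whether it counts as a Malat1 peak. Beside it, chr19:5794689-5795437 held 20 tags at a fold of 13.78. The summits of these peaks faced each other, at 84.0% of the length of the one and at 13.9% of the length of the other, 634 bp apart. Together they held 46 tags, 29.5% of the 156 tags of the locus, within 1897 bp. Between them and the row inside the gene lay 1495 bp without a listed region. Farther out, chr19:5793026-5793473 held 11 tags at a fold of 11.81.

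On the other side of Malat1, towards Neat1, the peaks were farther apart. The peak chr19:5806507-5806849 held 9 tags, the least that any peak in the list had, at a fold of 15.75. Its summit lay 3656 bp beyond the high edge of Malat1. The peak chr19:5810131-5810622 held 22 tags and had the highest fold (31.49) and the highest score (183.09) of the 11. It lay 7277 bp beyond Malat1 and 14723 bp short of the Neat1 interval.

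**Figure D1:**
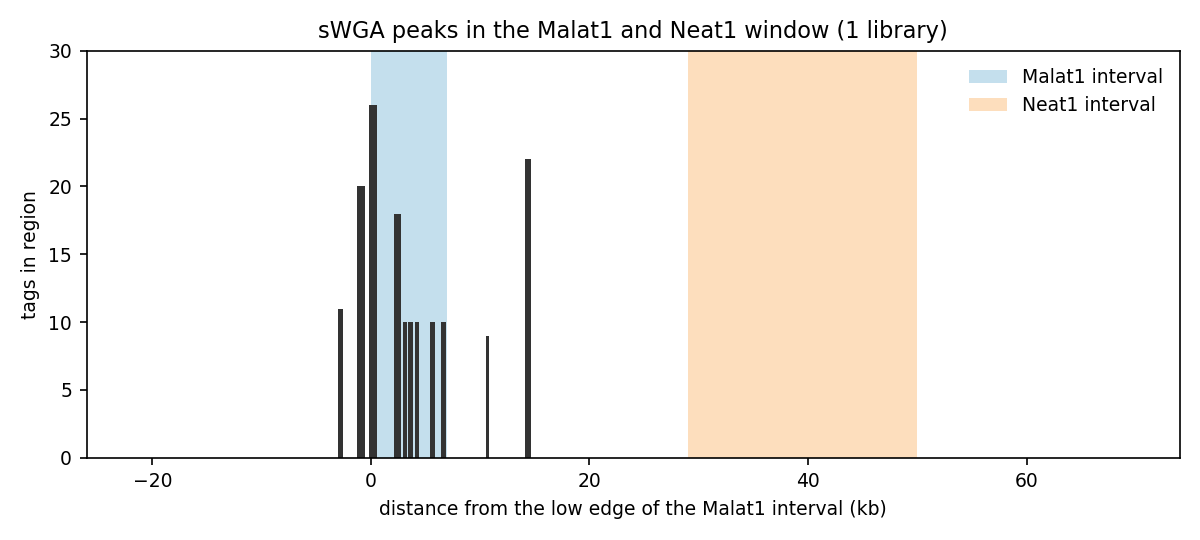
Each bar is a listed sWGA peak, as wide as the region and as high as its tags, by distance in kb from the low edge of the Malat1 interval. The 11 peaks stand on and around the Malat1 interval (blue), and the Neat1 interval (orange) holds 0.

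The tags of a peak and its height at the summit told different things along the row. The 26 tags at the end of Malat1 reached a height of 12, which is 46.2% of them, and the 20 tags beside it reached a height of 7, which is 35.0%. The 18 tags of the last peak inside the gene reached 8 (44.4%). In the peak of 22 tags between the genes the height was 16 (72.7%), and over the peaks of the list with the same background the median share was also 72.7%. The 3 peaks of 18 to 26 tags at Malat1 were thus broad, with lengths of 638 to 749 bp, while the peak of 22 tags measured 492 bp. The median share of the list was not matched to these peaks for tags or length. The whole list had a median of 11 tags and 419 bp. Over the 11 peaks lengths ran from 343 to 749 bp with a median of 448 bp.

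**Figure D2:**
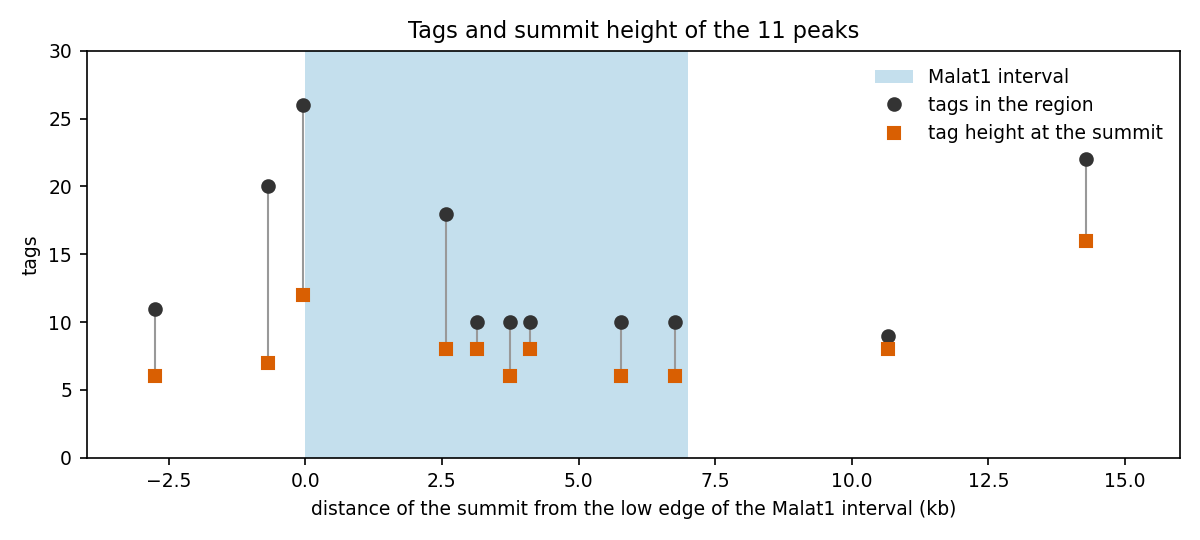
For each of the 11 peaks the dot gives its tags and the square the tag height at its summit, by distance of the summit in kb from the low edge of the Malat1 interval (blue). The peaks of 18, 20 and 26 tags have heights of 8, 7 and 12, and the peak of 22 tags has a height of 16.

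By score the weakest of the 11 peaks stood above 14.0% of the list and the strongest above 88.7%. A score of at least 100 was reached by 4 of the 11 (36.4%), and by 33.9% of the list. A fold of at least 20 was reached by 2 (18.2%), and by 23.9% of the list. At least 18 tags were held by 4 (36.4%), and by 21.4% of the list. No test of these shares was made. The median of the 11 was 10 tags, the median fold 15.75 and the median score 72.64. Inside the Malat1 interval 1 of 6 peaks passed the score of 100 and 0 passed the fold of 20.

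The peaks lay close to each other. The Malat1 interval of 7 kb held 0.857 peaks per kb, with an exact Poisson 95% interval of 0.315 to 1.87, where chromosome 19 as a whole held 0.0144 per kb. That range covers counting error only and takes no account of how the locus was chosen, so it is not a test against the chromosome. It treats neighbouring peaks as independent, which they may not be. The lengths of the peaks with their summit in the Malat1 interval added up to 39.2% of it, and those of chromosome 19 to 0.636%. The peak of 26 tags, chr19:5795850-5796585, also reaches into the interval but is left out, as its summit lies outside. The 68 tags in the Malat1 peaks amounted to 9.71 tags per kb of the interval, where all filtered sWGA tags spread evenly over the caller's effective genome would give 3.28 per kb. Tags outside listed regions are not in this number.

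Summits inside the run were 362 to 3884 bp apart, with a median spacing of 1328 bp. The nearest other summit lay at a median of 634 bp for the 11 peaks and at 17087 bp for the list. A stretch of 7 kb starting at a summit held at least 6 summits at 5 places in the list. Of these 1 was the Malat1 locus, where 7 summits fell into such a stretch, the most at any of the 5. The others lay on chromosomes 6, 8 and X (2 places). This count was made after the row had been seen.

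Joined over gaps of up to 10 kb, all 11 peaks made 1 run, chr19:5793026-5810622, of 17597 bp. The list held 191 groups of at least 5 peaks. Of these, 4 had more peaks than the Malat1 run, 19 had more tags and 15 had more peaks per kb. The median tags per peak stood low in comparison, since 151 groups had a higher median than the 10 tags of the Malat1 run, 34 had the same and 5 had a lower one. On chromosome 19 there were 6 such groups, and the next in size had 6 peaks.

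The other groups of 10 to 12 peaks differed in their makeup. That on chromosome 13, chr13:23583734-23628280, had 12 peaks and 198 tags spread over 44547 bp. That on chromosome 5, chr5:15185629-15209136, had 10 peaks and 133 tags over 23508 bp. That on chromosome X, chrX:166429903-166446411, packed 10 peaks into 16509 bp, much as at Malat1, but with a median of 25 tags per peak and 253 in all. The Malat1 run thus had the peak spacing of the X group at a tag number per peak nearer to those of the groups on chromosomes 13 and 5. The groups also differed in background. In the X group, 4 of the 10 peaks had folds that matched the genome-wide expectation, whereas all peaks of the Malat1 run and of the groups on chromosomes 13 and 5 did. In the Malat1 run the peaks of 9 to 11 tags could not have been listed with a control tag in the 10 kb window. The values given are of single groups, and no difference between the groups was tested.

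**Figure D3:**
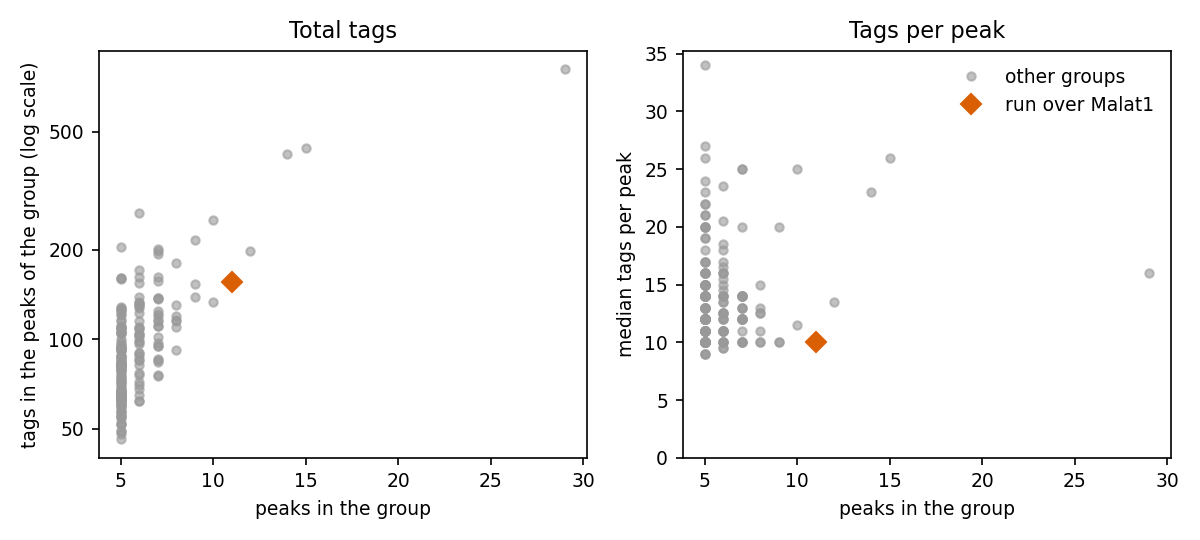
Each point is a group of at least 5 peaks, by the number of its peaks and, at left, its tags (log scale) or, at right, the median tags per peak. The Malat1 run (diamond) has 11 peaks and 156 tags, with a median of 10 tags per peak.

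Neat1, in contrast, had no listed peak. Its interval of 21 kb lay inside a gap of 153374 bp that began after the last peak of the Malat1 run. The next listed summit was 118170 bp beyond its high edge, in chr19:5963997-5964438, a region of 18 tags at a fold of 9.90. For a region of the median length of 419 bp, 9 tags were the least that reached the caller's limit, and 13 where a control tag lay within the 10 kb window. An even spread would put 68.8 sWGA tags in the Neat1 interval, and how many there were is not in the list. The value of 0 therefore means that no region there reached those tag numbers.

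Such emptiness was common. On a fixed grid, 76.6% of the 2919 windows of 21 kb on chromosome 19 held 0 peaks. Of the 882 gaps between neighbouring peaks on the chromosome, 96 (10.9%) were longer than the gap over Neat1, and gaps of at least that length made up 43.2% of the chromosome. Before the Malat1 run the gap was 63177 bp, and 31.3% of gaps on chromosome 19 were longer. It ended at chr19:5729530-5729848, a region of 10 tags at a fold of 17.71. The median gap on the chromosome was 34.4 kb.

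**Figure D4:**
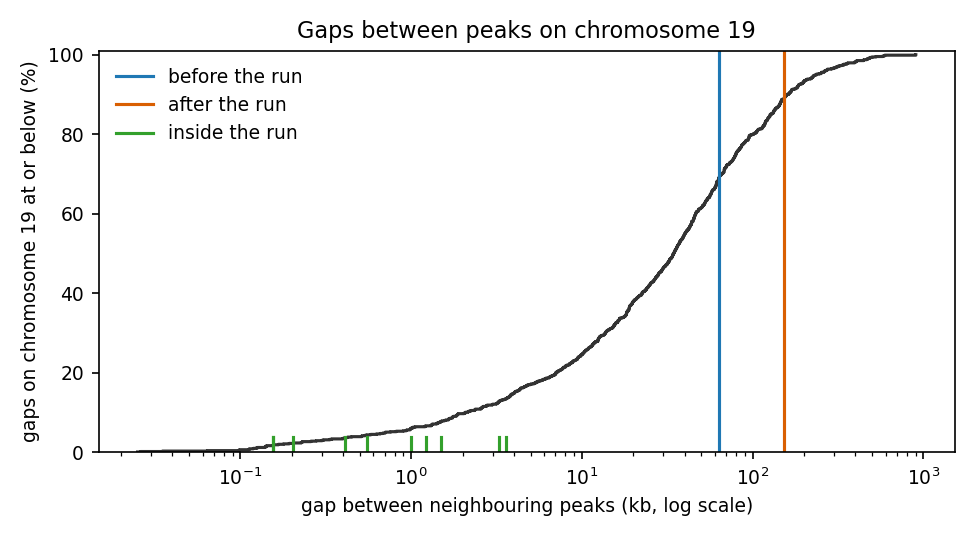
The black line gives the percent of the 882 gaps on chromosome 19 at or below each length (kb, log scale). The green ticks are the 10 gaps inside the Malat1 run, 155 to 3616 bp, and the vertical lines are the gaps of 63177 bp before it and 153374 bp after it, which holds Neat1.

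In windows of 100 kb on a fixed grid over the autosomes, the median was 1 peak, and 17 of 24704 windows held 11 or more. A grid line cuts through the Malat1 run, so that the run itself is not among the 17. Shifted by 50 kb, the grid had 20 such windows, of which 1, the only one on chromosome 19, holds the run.

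The control list had 0 regions in the window, out of 21 on chromosome 19 and 750 in all. Its nearest region below the window was chr19:4191934-4192256 and its nearest above was chr19:10609820-10609979, each with 3 tags. Divided by the fold that 1 tag is worth at the genome-wide expectation of 0.508 tags, the folds of all 11 peaks came to a whole number of tags within 0.01, as did those of 91.2% of the list. A single control tag in the 10 kb window around a peak would have raised that expectation to 1.21. The folds thus show no control tag within 5 kb of any of the 11 summits. With such a tag, a region shorter than any of the 11 peaks already needed 11 tags to be listed. A region of 419 bp needed 13, and the peak of 11 tags measured 448 bp. For the peaks of 9 to 11 tags the absence thus followed from their being listed and says nothing about the locus. The surroundings of the 11 summits span 27.0 kb, where 1.13 control tags would fall if they were spread evenly. At this depth the control gives no measure of the background at Malat1, and whether a deeper control would hold tags there was not tested.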

How the data were processed

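Chromatin was cross-linked and sheared by sonication to 100 to 500 bp, per the labels' protocols, and fragments of 200 to 300 bp were amplified over 18 cycles and read for 76 cycles. Per the file headers, the authors called regions with MACS 1.4.1 (p cutoff 1e-05), scaling the smaller library up, with at most 2 duplicate tags per position in the sWGA library and 1 in the control. Positions are on mm9, which the submitters' processing notes name; which aligner was used is not given in the sources used here. Deposited tag counts are unscaled, and the deposited score, fold (a ratio) and FDR (a percent) are the authors'. Summits are start plus summit minus 1. The control list is named as the exchanged run and has no header.

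Peaks were placed by summit, and heights are folds times the genome-wide expectation. Joining and window counts were tested on simulated data. Python 3.11.15, numpy 2.4.6, pandas 2.3.3, scipy 1.17.1 and matplotlib 3.10.9 were used. Named items are both genes, every peak in the window and the genes next to them; groups, gaps and control regions were named for comparison after their values were seen. The peaks and lists were chosen with earlier results of these data known. Planned counts over paraspeckle and speckle gene lists needed gene positions on mm9 and are not reported here. Alternatives were stricter scores, folds and tags, overlap placement, wider intervals and other joining distances.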

Additional observations from a re-analysis of the deposited data

How the results depend on the processing

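No paired analysis was possible because the groups have a single library each, which also means that none could be dropped. Peaks scoring at least 100 were fewer: the window kept 4 peaks of 11, the Malat1 interval 1 of 6, the space between the genes 1 of 2, all places outside both genes 3 of 5 and the Malat1 run 3 of 11, and the tags in peaks per kb of Malat1 were 2.57 in place of 9.71. A fold of at least 20 left 2, 0, 1 and 2 peaks in the first 4 of these, and at least 18 tags left 4, 1, 1 and 3. With intervals widened by 2 kb, 3 peaks lay outside both genes. Added after the data were seen, widening by 100 bp brought the peak of 26 tags into Malat1, which then had 7 peaks and 13.1 tags per kb. Joining over 1 kb, also added, left a run of 6 peaks. Of 41 alternative values 24 stayed within 1.5 times the reported count or within the 95% interval of the reported tags per kb. The 24 include those of Neat1, which stayed at 0 peaks and 0 tags per kb under each alternative run. The Neat1 values could not have moved, since stricter limits only remove peaks and the nearest summit lay 14723 bp outside the interval. Widening by 2 kb does not reach that summit.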

Other observations

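For 10 of the 11 peaks the deposited score was recovered within 0.01 from the Poisson probability of exceeding its tags, given the genome-wide sWGA rate. The exception was the peak of 26 tags at the end of Malat1, chr19:5795850-5796585, whose deposited score of 176.68 is the value for 1 tag fewer; its own tags would give 187.19. The cause was not tested.

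The deposited FDR of the 11 peaks ran from 2.58% for the peak near the start of Malat1 to 19.64% for the peak with the highest score. Here a higher FDR thus went with a higher score. Both control regions nearest the window had a score of 3100 on 3 tags each, above the scores of all 11 peaks. Why the FDR rose with the score was not tested, and it is not read here as showing which peaks are false.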
